A study of Mus musculus with 12 samples.

Results

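The matrix metalloproteinases (MMPs), the ADAMs, the ADAMTS proteases and their tissue inhibitors (TIMPs) were followed through mouse lungs given lipopolysaccharide (LPS), bovine lactoferrin (bLF), both or neither. Members were taken by gene name, as every row that opens with Mmp, Adam or Adamts and a number, together with Timp1 to Timp4. The rule found 64 of the 17920 genes in the files: 18 Mmp, 4 Timp, 23 Adam and 19 Adamts genes. It used no measured value. The lungs came from 12 male BALB/c mice with no engineered allele named in the labels, aged 6 to 8 weeks and weighing 20 g. The 4 groups of 3 were LPS+bLF, LPS (50 µL at 1 µg/µL, a bacterial endotoxin that provokes inflammation), bLF (200 mg/kg per day, an iron-binding milk protein) and control, all sampled after 14 days, from a study of 24 mice with 6 in each group. One label spells the group given both as LBS+BLF. The labels say nothing of what control mice received, of how or when LPS was given, or of how long before sampling that was.

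MMPs are zinc proteases that are made as inactive precursors and cut collagen, elastin and other matrix proteins once their propeptide is removed. TIMPs bind the active site of these enzymes and block it. ADAMs are anchored in the cell membrane and release the outer parts of cytokines, growth factors and receptors, and ADAMTS enzymes are secreted and trim procollagen, proteoglycans or von Willebrand factor. In the lung the collagenase Mmp8 is stored in neutrophil granules and the elastase Mmp12 is made by macrophages, while fibroblasts, endothelium and epithelium are sources of TIMPs and membrane-type MMPs.

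Of the 18 Mmp genes, 6 lie within a single cluster on chromosome 9 (GRCm38/mm10), with Mmp13 (7272514 to 7283333), Mmp12 (7344397 to 7360461), Mmp3 (7445822 to 7455975), Mmp8 (7558429 to 7568486), Mmp27 (7571396 to 7581885) and Mmp7 (7692090 to 7699585) in that order. The 250 bases before the start of 5 of these genes are shown because Mmp12 differed from its neighbours Mmp3 and Mmp8. Mmp3 and Mmp8 were highest of the 12 libraries in replicate 1 of the LPS group, and Mmp12 was lowest there. Mmp7 and Mmp13 had too few reads to be called high in any library, 4 and 118 over the 12 libraries. The stretch before Timp1 on chromosome X stands beside them because Timp1 reached the highest level of any member in a single library. Sequences are from RefSeq (GRCm38.p6), 5′ to 3′ on the strand of the gene, with matches to the AP-1 motif TGANTCA in capitals.
Mmp13, chr9:7272264-7272513, plus strand: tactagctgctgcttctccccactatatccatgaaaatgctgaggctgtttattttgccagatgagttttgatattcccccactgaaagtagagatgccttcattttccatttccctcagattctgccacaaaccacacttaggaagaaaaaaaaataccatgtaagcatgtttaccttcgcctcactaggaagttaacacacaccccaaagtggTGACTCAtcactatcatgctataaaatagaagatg
Mmp12, second of 2 starts, chr9:7347124-7347373, plus strand: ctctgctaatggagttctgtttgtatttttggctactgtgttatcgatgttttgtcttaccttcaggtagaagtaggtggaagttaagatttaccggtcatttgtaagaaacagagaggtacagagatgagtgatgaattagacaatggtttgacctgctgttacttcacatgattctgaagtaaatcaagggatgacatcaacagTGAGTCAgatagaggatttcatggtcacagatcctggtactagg
Mmp3, chr9:7445572-7445821, plus strand: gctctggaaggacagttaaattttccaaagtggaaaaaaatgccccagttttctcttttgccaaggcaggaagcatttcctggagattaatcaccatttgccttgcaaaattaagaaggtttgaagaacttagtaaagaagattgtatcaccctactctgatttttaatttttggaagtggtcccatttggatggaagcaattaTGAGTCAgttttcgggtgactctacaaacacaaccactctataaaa
Mmp8, chr9:7558179-7558428, plus strand: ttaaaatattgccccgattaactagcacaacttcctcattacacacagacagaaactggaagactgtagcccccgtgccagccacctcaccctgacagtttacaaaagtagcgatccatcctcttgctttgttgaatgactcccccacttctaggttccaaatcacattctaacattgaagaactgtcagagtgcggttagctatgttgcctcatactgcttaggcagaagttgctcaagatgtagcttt
Mmp7, first of 2 starts, chr9:7691840-7692089, plus strand: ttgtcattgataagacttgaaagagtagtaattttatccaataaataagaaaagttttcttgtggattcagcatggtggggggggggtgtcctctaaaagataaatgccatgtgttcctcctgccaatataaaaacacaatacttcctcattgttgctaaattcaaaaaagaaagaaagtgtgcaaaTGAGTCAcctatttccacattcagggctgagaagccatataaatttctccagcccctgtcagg
Timp1, chrX:20869916-20870165, plus strand: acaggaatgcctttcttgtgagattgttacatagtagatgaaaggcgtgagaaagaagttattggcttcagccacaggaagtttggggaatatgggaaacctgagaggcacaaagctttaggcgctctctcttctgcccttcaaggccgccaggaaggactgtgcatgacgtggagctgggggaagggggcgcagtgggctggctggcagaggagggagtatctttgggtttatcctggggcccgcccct

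RefSeq promoter entries were found for 37 of the 64 members, 42 entries in all. The AP-1 motif, which reads the same on both strands, was in 5 of these 42 entries (11.9%) and in 6.7% of all 32851 entries of the same length. The 5 entries belonged to Mmp3, Mmp7, Mmp12, Mmp13 and Adam19, and the match began at base -46 before the start of Mmp3, -44 before the second start of Mmp12, -35 before Mmp13 and -63 before Mmp7. No match stood in the windows of Mmp8 and Timp1, or in those before the first start of Mmp12 and the second start of Mmp7. The ETS motif AGGAAG, searched on both strands, was in 15 of the 42 entries (35.7%), among them the windows shown for Mmp3, Mmp7, Mmp8, Mmp13 and Timp1, and in 29.5% of all entries. The STAT motif TTCNNNGAA, also the same on both strands, was in entries of Adam21 and Mmp23 alone among members and in 7.0% of all entries. Such a match is a string of letters and no measure of binding.

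Levels are given in FPKM, a measure per unit of gene length and of library size, for replicates 1, 2 and 3 of each group in that order. Total counts ran from 16714327 to 17820645 per library, and a count of 0 allows up to 3 counts of that total (0.168 to 0.18 CPM, counting error only). Tests covered genes that reached 0.5 FPKM in 3 or more of the 12 libraries, which kept 40 of the 64 members and 13735 of all genes. The 40 reached this minimum in libraries of more than 1 group, and 37 of them in libraries of all 4 groups. Exons of 18 members overlap an exon of another gene in the GENCODE annotation, and whether the counting used strand is not given in the sources used here, so their reads cannot be told apart there. The longest overlaps among tested members were Adam1a with Gm42878 (2409 bases), Timp3 with Syn3 (1733), Adamts9 with A730049H05Rik (1215), Adam1a with Tmem116 (848), Mmp19 with Tmem198b (789) and Adam15 with 4731419I09Rik (539). Overlaps of Adam17 with Iah1 (311), Mmp28 with 1700020L24Rik (466) and Mmp12 with Mmp1b (157) were shorter.

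Libraries stood apart within groups. LPS replicate 1 had 3067 genes at 0, where the other 11 libraries had 1499 to 1963, and its median correlation with the others was 0.92 against 0.948 to 0.983. The 14 neutrophil markers summed to 2183 FPKM in it, against 555 and 698 in the other LPS libraries, 463 to 599.7 in LPS+bLF, 412 to 689 in bLF and 299 to 890 in control libraries. Of these markers 7 were highest in it, among them Retnlg (594 FPKM, 18.6 to 39.9 elsewhere), while Ly6g was at 1.06 FPKM there and 0.35 to 2.14 elsewhere, and Elane was at 0 there. The 14 monocyte and macrophage markers summed to 553 FPKM in it and to 2219 and 3694 in the other LPS libraries, with 2 of the 14 individually lowest in it, against 927 to 1750.0 in LPS+bLF, 862 to 1719 in bLF and 895 to 2540.0 in control libraries. Fat and heart markers were high in LPS+bLF replicate 2, bLF replicate 1 and control replicate 1, and skeletal muscle and squamous markers in LPS+bLF replicate 3. Control replicate 2 held the club cell marker Scgb1a1 at 1056141 FPKM (68088.5 to 331490 elsewhere). It was the lowest of the 12 libraries for 8 members (20.0%) and for 23.4% of all tested genes. The 8 were Adam15, Adamts2, Adamts7, Adamts15, Mmp3, Mmp14, Mmp19 and Timp2. Alveolar markers were high in every library, with surfactant protein gene Sftpc at 43000.3 to 166276 FPKM. Summed alveolar type 2 markers were nonetheless lowest in LPS replicate 1 (47080.0 FPKM, 64850.0 to 179300.0 elsewhere), as were those of ciliated cells (440.4, 1118 to 1844 elsewhere), NK cells (24.9, 122 to 579 elsewhere), B cells (45.2, 76.9 to 597 elsewhere) and T cells (39.3, 50.4 to 169 elsewhere). Summed glucocorticoid target genes (17360.0 FPKM, 554 to 2784 elsewhere) and cell cycle genes (109, 9.6 to 27.0 elsewhere) were highest in it. The part of these differences in the members' values in that library was not tested. In whole lung, fewer cells of a type and less RNA per cell cannot be told apart.

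**Figure D1:**
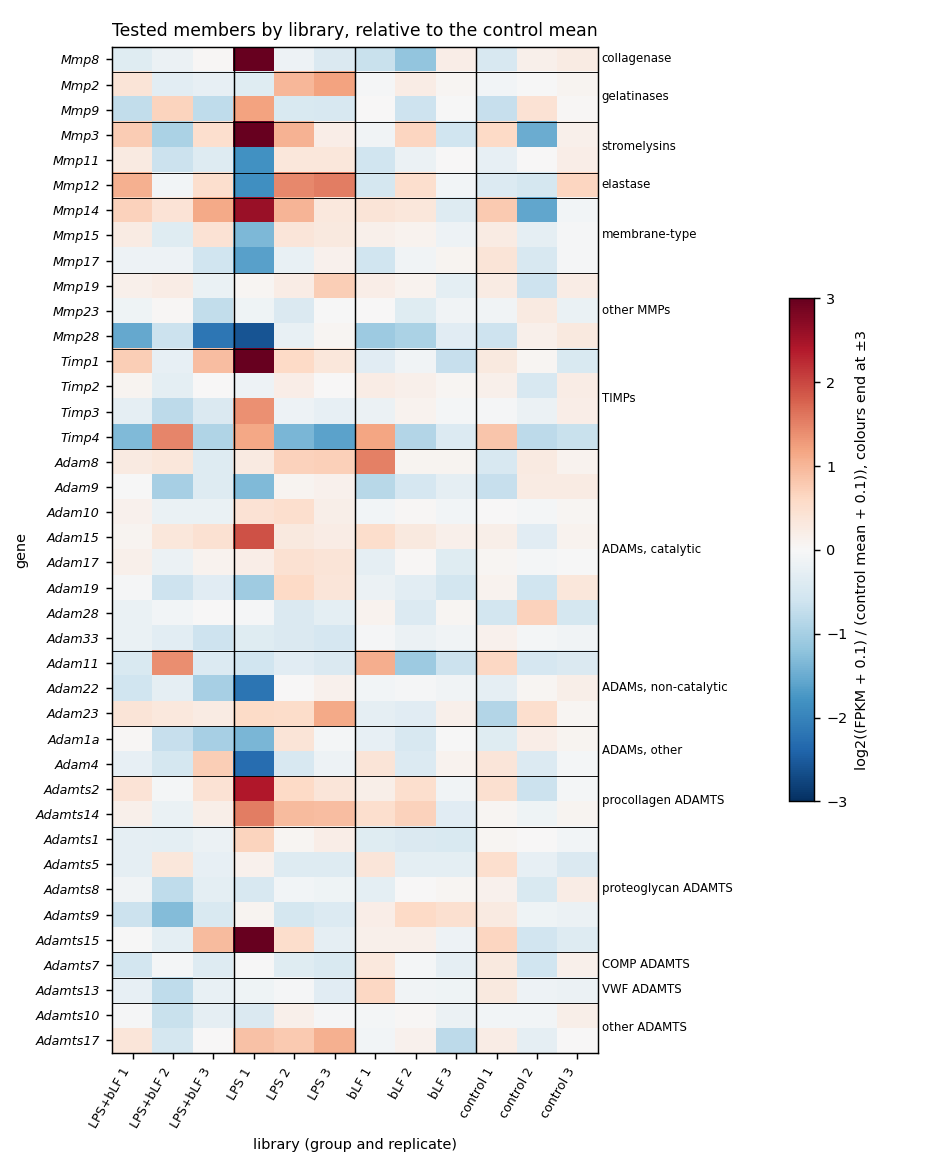
Level of each of the 40 tested members (rows, by role) in each of the 12 libraries (columns), as log2 of FPKM plus 0.1 over the control mean plus 0.1, with colours ending at ±3. LPS replicate 1 was the highest of the 12 libraries for 11 members (27.5%) and the lowest for another 11 (27.5%), where it was highest for 18.9% of all tested genes and lowest for 44.0%.

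The most abundant members were Timp2 at a mean of 155 FPKM over the 12 libraries, Adam15 at 99.9, Adamts10 at 61.3, Timp3 at 58.4 and Timp1 at 50.3. The Timp1 mean rested on LPS replicate 1 and was 12.9 FPKM over the other 11 libraries, below the means of Mmp15, Mmp2, Adamts13, Mmp14 and Mmp11 there. Among MMPs the means were highest for the membrane-type enzymes Mmp15 at 35.3 FPKM and Mmp14 at 34.9 and for the gelatinase Mmp2 at 33.0. Below the minimum were 24 members. They were Mmp7, Mmp13, Mmp16, Mmp24, Mmp25 and Mmp27, 10 ADAM genes (Adam2, Adam3, Adam5, Adam6b, Adam7, Adam12, Adam18, Adam21, Adam30 and Adam32), and 8 ADAMTS genes (Adamts3, Adamts4, Adamts6, Adamts12, Adamts16, Adamts18, Adamts19 and Adamts20). Several of these ADAMs are known from testis. The highest value among the 24 was 1.35 FPKM, for the aggrecanase Adamts4 in LPS replicate 1, from 137 reads.

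Adamts4 was at 0.1, 0.09 and 0.09 FPKM in LPS+bLF lungs, 1.35, 0.11 and 0.07 in LPS lungs, 0.04, 0.07 and 0.03 in bLF lungs, and 0.08, 0.06 and 0.07 in control lungs. It stood above 0.11 FPKM in 1 library only. Mmp13 was at 0.21, 0.26 and 0.09 FPKM in LPS+bLF lungs, 0.05, 0.41 and 0.3 in LPS lungs, 0.29, 0.4 and 0.28 in bLF lungs, and 0.27, 0.12 and 0.12 in control lungs. This collagenase, which in mice takes the place of the human interstitial collagenase, stayed under 0.5 FPKM throughout. The matrilysin Mmp7, an epithelial enzyme, had a value above 0 in 2 libraries, 0.16 FPKM each in LPS+bLF replicate 1 and LPS replicate 3, and was at 0 in the other 10.

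LPS versus control asked how the lung differed after LPS alone. None of the 40 tested members was called at an adjusted p under 0.05 by edgeR, and none of all 13735 genes (0.00%). At an unadjusted p under 0.05, 12 of the 40 members were higher in LPS lungs and 0 lower, where 5.52% of all genes were higher and 1.62% lower (7.14% in all, 980 genes). The 12 were Adam10, Adam15, Adam17, Adamts2, Adamts14, Adamts15, Adamts17, Mmp2, Mmp3, Mmp8, Mmp14 and Timp1. Over the 40 the median log2 fold change was 0.17, against -0.04 over all tested genes, with 22 members above 0 and 18 below, where 45.8% of all genes were above 0. DESeq2 called 1 member, Adamts14, among 139 genes (1.01%), and limma on log2(FPKM + 1) called 0 members among 2 genes (0.0146%). Without LPS replicate 1, 7 members passed the unadjusted threshold: Adam10, Adam17, Adamts14, Adamts17, Mmp2 and Mmp12 were higher and Adam33 was lower, where 3.83% of all genes were higher and 1.17% lower. At the adjusted threshold 0 members and 0.182% of genes passed without that library. Without control replicate 2 instead, 8 members were higher at the unadjusted threshold and 0 lower, where 457 of all 13735 genes were higher and 137 lower. The 8 were Adam10, Adam17, Adam23, Adamts2, Adamts14, Adamts17, Mmp2 and Timp1.

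These members formed sets that differed in which LPS libraries were high. Timp1, Mmp3, Mmp8, Mmp14, Adamts2, Adamts15 and Adam15 were highest of all libraries in LPS replicate 1. Timp1, an inhibitor induced in inflamed tissue, had the widest range. Timp1 was at 18.8, 9.48 and 21.4 FPKM in LPS+bLF lungs, 462, 17.2 and 14.3 in LPS lungs, 8.86, 10.6 and 6.99 in bLF lungs, and 13.9, 11.8 and 8.27 in control lungs. All 3 LPS lungs were above the 3 control lungs, by little in replicates 2 and 3 and by far the most in replicate 1. The log2 fold change was 4.13 ± 1.2 (SE, edgeR adjusted p = 0.448) with the 3 LPS lungs and 0.44 ± 0.33 without LPS replicate 1, and DESeq2 gave no adjusted p.

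Mmp3 was at 13.7, 4.13 and 11.4 FPKM in LPS+bLF lungs, 84.3, 16.7 and 9.21 in LPS lungs, 7.42, 12.6 and 5.23 in bLF lungs, and 12.3, 2.79 and 8.99 in control lungs. The stromelysin Mmp3, which cuts proteoglycans and activates other MMPs, was above the control range in LPS replicates 1 and 2 and within it in replicate 3 (2.44 ± 0.86, adjusted p = 0.601 by edgeR, and 0.68 ± 0.59 without replicate 1). Mmp8 was at 0.71, 0.82 and 0.97 FPKM in LPS+bLF lungs, 13.2, 0.84 and 0.67 in LPS lungs, 0.55, 0.36 and 1.09 in bLF lungs, and 0.64, 1.05 and 1.13 in control lungs. Replicates 2 and 3 lay within the control range for this neutrophil collagenase, whose log2 fold change was 2.60 ± 1.04 (edgeR adjusted p = 0.663) and turned to -0.39 without replicate 1. The summed neutrophil markers were highest in the same library, and their part in the Mmp8 value was not tested. Mmp14 was at 32.3, 26.9 and 44.5 FPKM in LPS+bLF lungs, 121, 40.6 and 25.0 in LPS lungs, 26.4, 25.7 and 15.4 in bLF lungs, and 34.7, 6.76 and 18.9 in control lungs. For Mmp14, which activates the Mmp2 precursor at the cell surface, LPS replicate 3 lay within the control range (1.84 ± 0.65, edgeR adjusted p = 0.616, and 0.69 ± 0.49 without replicate 1).

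Adamts2 was at 6.83, 4.88 and 6.92 FPKM in LPS+bLF lungs, 27.5, 7.74 and 6.62 in LPS lungs, 5.84, 7.33 and 4.72 in bLF lungs, and 7.18, 3.25 and 4.93 in control lungs. Adamts15 was at 9.14, 7.48 and 17.9 FPKM in LPS+bLF lungs, 83.0, 13.2 and 7.56 in LPS lungs, 10.2, 10.2 and 8.21 in bLF lungs, and 14.4, 6.15 and 6.99 in control lungs. Adamts2 removes the amino-terminal propeptide of fibrillar procollagen and Adamts15 cuts aggrecan and versican. Both were far above the other LPS libraries in LPS replicate 1, and their log2 fold changes of 1.63 ± 0.54 and 2.1 ± 0.78 (edgeR adjusted p = 0.557 and 0.646) became 0.46 and 0.19 without it. Adam15 was at 76.1, 91.6 and 99.99 FPKM in LPS+bLF lungs, 270.05, 88.2 and 84.6 in LPS lungs, 104, 87.9 and 79.8 in bLF lungs, and 81.3, 57.4 and 78.2 in control lungs. Adam15, a disintegrin protease of endothelium and epithelium, was above the control range in all 3 LPS lungs (1.19 ± 0.45, edgeR adjusted p = 0.646), with 0.22 ± 0.17 left without replicate 1. Timp3 was at 46.6, 32.6 and 41.5 FPKM in LPS+bLF lungs, 147, 51.1 and 47.5 in LPS lungs, 49.7, 61.2 and 54.1 in bLF lungs, and 54.8, 50.0 and 64.6 in control lungs. Timp3, the inhibitor that stays bound to the matrix and also blocks ADAM17, was within or below the control range in LPS replicates 2 and 3 (0.68 ± 0.43, adjusted p = 0.685 by edgeR, and -0.25 without replicate 1).

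**Figure D2:**
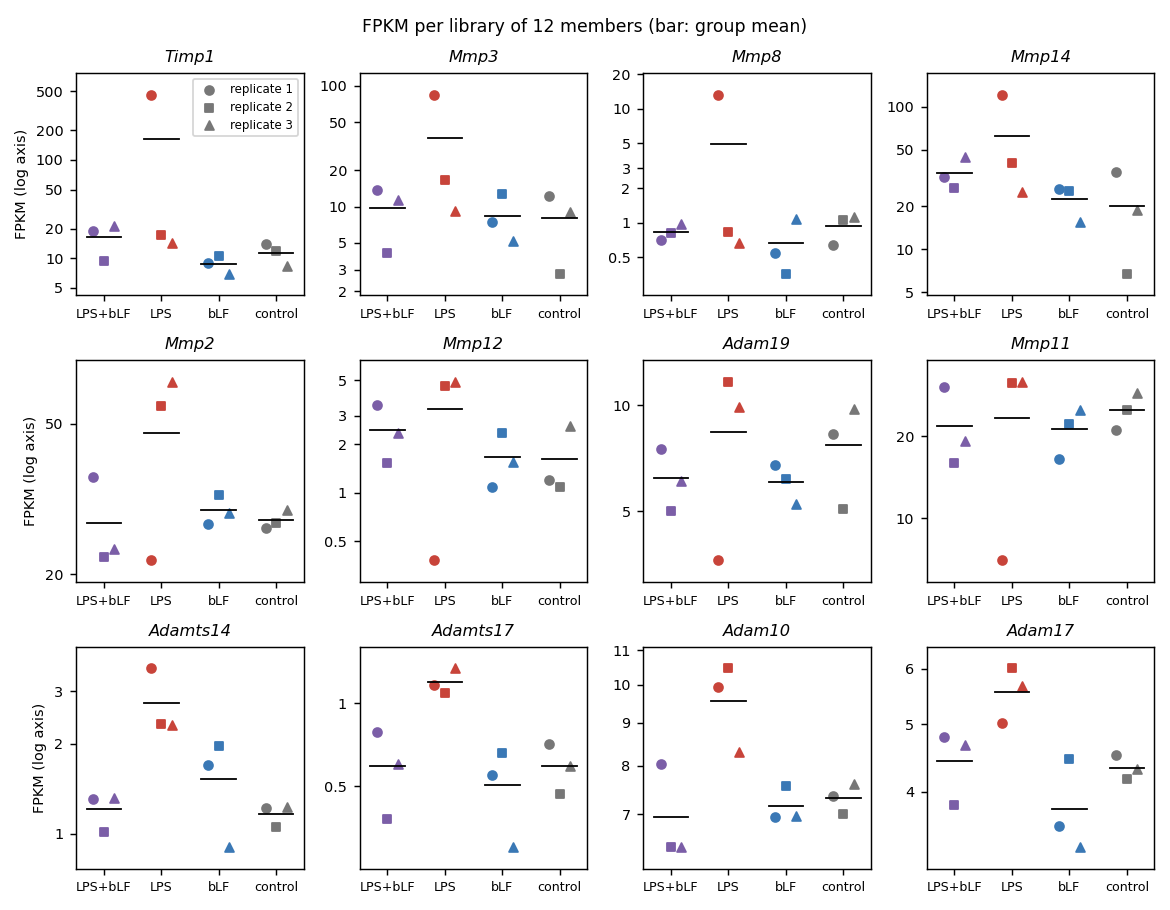
FPKM on log axes of 12 members in each library, by group, with a bar at the group mean and a symbol for each replicate. The top row shows members highest in LPS replicate 1 (Timp1 at 462 FPKM), the middle row members lowest there (Mmp12 at 0.38 FPKM), and the bottom row members whose 3 LPS values all lay above the control values.

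The reverse order was seen for Mmp2, Mmp11, Mmp12, Mmp15, Mmp28 and Adam19, which were lowest of all 12 libraries in LPS replicate 1, as were 44.0% of all tested genes. Mmp2 was at 36.1, 22.2 and 23.4 FPKM in LPS+bLF lungs, 21.8, 55.7 and 64.6 in LPS lungs, 27.2, 32.4 and 29.0 in bLF lungs, and 26.4, 27.4 and 29.6 in control lungs. The gelatinase Mmp2, which cuts denatured collagen and basement membrane, was well above every control lung in LPS replicates 2 and 3 and below each of them in replicate 1. Its log2 fold change was 0.77 ± 0.29 (edgeR adjusted p = 0.646), and it was 1.06 with an adjusted p of 0.0706 by edgeR without replicate 1. Mmp12 was at 3.51, 1.52 and 2.34 FPKM in LPS+bLF lungs, 0.38, 4.58 and 4.89 in LPS lungs, 1.09, 2.35 and 1.54 in bLF lungs, and 1.2, 1.09 and 2.58 in control lungs. The same split held for this macrophage elastase, at 1.00 ± 0.66 (edgeR adjusted p = 0.686) and 1.49 ± 0.44 without replicate 1. Summed monocyte and macrophage markers were also lowest in LPS replicate 1 (553 FPKM, against 2219 and 3694 in replicates 2 and 3), and their part in the Mmp12 value was not tested.

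Adam19 was at 7.52, 5.01 and 6.1 FPKM in LPS+bLF lungs, 3.63, 11.7 and 9.93 in LPS lungs, 6.78, 6.2 and 5.24 in bLF lungs, and 8.3, 5.08 and 9.8 in control lungs. Adam19, a protease that sheds neuregulin, was above every control lung in LPS replicates 2 and 3 and below each in replicate 1 (0.15 ± 0.30, edgeR adjusted p = 0.845, and 0.45 without replicate 1). Mmp11 was at 30.3, 15.9 and 19.1 FPKM in LPS+bLF lungs, 7.0, 31.5 and 31.8 in LPS lungs, 16.5, 22.2 and 25.0 in bLF lungs, and 21.1, 25.1 and 29.0 in control lungs. Mmp11, a stromelysin activated inside the cell by furin, showed the same order with a smaller gap (-0.11 ± 0.41, edgeR adjusted p = 0.916, and 0.28 without replicate 1). Mmp15 was at 40.8, 26.6 and 46.6 FPKM in LPS+bLF lungs, 13.4, 44.5 and 42.1 in LPS lungs, 38.0, 36.7 and 31.2 in bLF lungs, and 41.1, 28.5 and 33.7 in control lungs. Mmp15 was outside the control range in all 3 LPS lungs, above it in replicates 2 and 3 and below it in replicate 1.

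Mmp28 was at 0.73, 1.45 and 0.44 FPKM in LPS+bLF lungs, 0.3, 1.98 and 2.43 in LPS lungs, 1.04, 1.16 and 1.82 in bLF lungs, and 1.48, 2.6 and 2.87 in control lungs. The epithelial enzyme Mmp28 (epilysin) was within the control range in LPS replicates 2 and 3 and below it in replicate 1 (-0.59 ± 0.62, edgeR adjusted p = 0.725). Adam9 was at 4.16, 2.06 and 3.18 FPKM in LPS+bLF lungs, 1.61, 4.42 and 4.61 in LPS lungs, 2.3, 2.94 and 3.44 in bLF lungs, and 2.57, 4.96 and 5.01 in control lungs. Adam9, a widely made sheddase, was within the control range in LPS replicates 2 and 3 (-0.25 ± 0.39, edgeR adjusted p = 0.787, and 0.04 without replicate 1).

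Another set held members whose 3 LPS values all lay above the 3 control values. There were 8 such members of 40, where 4.00% of all tested genes did so: Adam8, Adam10, Adam15, Adam17, Adam23, Adamts14, Adamts17 and Timp1. Only Adam33 lay wholly below, as did 3.92% of all genes. Adamts14 was at 1.31, 1.01 and 1.32 FPKM in LPS+bLF lungs, 3.58, 2.33 and 2.32 in LPS lungs, 1.7, 1.96 and 0.9 in bLF lungs, and 1.22, 1.05 and 1.23 in control lungs. Adamts14, which like Adamts2 removes the amino-terminal propeptide of procollagen, had the smallest p of any member (log2 fold change 1.33 ± 0.32, edgeR adjusted p = 0.278, DESeq2 adjusted p = 0.0192). It was 0.95 ± 0.27 without LPS replicate 1. Adamts17 was at 0.79, 0.38 and 0.6 FPKM in LPS+bLF lungs, 1.17, 1.09 and 1.34 in LPS lungs, 0.55, 0.66 and 0.3 in bLF lungs, and 0.71, 0.47 and 0.59 in control lungs. Adamts17, a protease of the fibrillin network, was at 1.15 ± 0.33 (edgeR adjusted p = 0.435), and at 1.02 without replicate 1, from 100 to 129 reads per LPS library and 45 to 60 per control library.

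Adam10 was at 8.04, 6.39 and 6.39 FPKM in LPS+bLF lungs, 9.94, 10.5 and 8.32 in LPS lungs, 6.94, 7.56 and 6.97 in bLF lungs, and 7.35, 7.01 and 7.61 in control lungs. Adam10, the sheddase of Notch and cadherins, differed little in size but by more than the spread of either group (0.44 ± 0.15, edgeR adjusted p = 0.6). Adam17 was at 4.79, 3.83 and 4.67 FPKM in LPS+bLF lungs, 5.02, 6.01 and 5.67 in LPS lungs, 3.57, 4.45 and 3.33 in bLF lungs, and 4.52, 4.17 and 4.31 in control lungs. Adam17, the enzyme that releases TNF, was likewise higher in each LPS lung than in any control lung (0.40 ± 0.15, edgeR adjusted p = 0.637). Without LPS replicate 1 the 2 values were 0.30 and 0.37.

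Adam8 was at 4.85, 5.08 and 3.05 FPKM in LPS+bLF lungs, 4.86, 6.52 and 6.56 in LPS lungs, 11.5, 4.25 and 4.23 in bLF lungs, and 2.84, 4.81 and 4.32 in control lungs. Adam8 is made by granulocytes and macrophages. Its 3 LPS values were above the control values by a small margin (0.61 ± 0.39, edgeR adjusted p = 0.685), and its highest level was in bLF replicate 1. Adam23, a non-catalytic member of the nervous system, ranged from 1.0 to 1.55 FPKM in LPS lungs and from 0.31 to 0.96 in control lungs. Adam33 was at 2.86, 2.63 and 2.11 FPKM in LPS+bLF lungs, 2.56, 2.44 and 2.33 in LPS lungs, 3.25, 2.93 and 3.09 in bLF lungs, and 3.66, 3.21 and 3.1 in control lungs. Adam33, known from airway smooth muscle and fibroblasts, was the member below the control range in all 3 LPS lungs (-0.27 ± 0.23, edgeR adjusted p = 0.699, and -0.54 without replicate 1).

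The gelatinase Mmp9, Mmp19 and the remaining TIMPs overlapped between LPS and control lungs. Mmp9 was at 1.55, 4.28 and 1.53 FPKM in LPS+bLF lungs, 6.26, 1.89 and 1.87 in LPS lungs, 2.66, 1.68 and 2.63 in bLF lungs, and 1.6, 3.64 and 2.72 in control lungs. Mmp9, another enzyme of neutrophil granules, was highest in LPS replicate 1, but replicates 2 and 3 were within the control range (0.45 ± 0.62, edgeR adjusted p = 0.77, and -0.58 without replicate 1). Mmp19 was at 3.35, 3.51 and 2.59 FPKM in LPS+bLF lungs, 3.15, 3.53 and 5.03 in LPS lungs, 3.45, 3.21 and 2.43 in bLF lungs, and 3.6, 1.91 and 3.49 in control lungs. Mmp19, a secreted protease of basement membrane proteins, was above the control range in LPS replicate 3 only (0.45 ± 0.25, edgeR adjusted p = 0.684). Timp2 was at 160.26, 123 and 152 FPKM in LPS+bLF lungs, 137, 173 and 153 in LPS lungs, 176, 169 and 158 in bLF lungs, and 170.15, 109 and 176 in control lungs. Timp2, which joins Mmp14 in the activation of Mmp2, was nearly level across groups (0.09 ± 0.17, edgeR adjusted p = 0.837).

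Timp4 was at 0.87, 6.67 and 1.21 FPKM in LPS+bLF lungs, 5.34, 0.84 and 0.71 in LPS lungs, 5.48, 1.23 and 1.75 in bLF lungs, and 4.26, 1.33 and 1.45 in control lungs. Timp4, an inhibitor of heart and fat, was at 4.26 FPKM or more in LPS+bLF replicate 2, LPS replicate 1, bLF replicate 1 and control replicate 1 and at 1.75 or less in the other 8. Summed fat markers (10 of 10 in the files) were 21720 FPKM in LPS+bLF replicate 2, 5497 in bLF replicate 1 and 11170 in control replicate 1, and 145 in LPS replicate 1, with 20.2 to 175 in the other 8. The part of these tissues in the Timp4 values was not tested. The non-catalytic Adam11 had its 3 highest values, 1.47, 1.16 and 0.82 FPKM, in the same LPS+bLF, bLF and control libraries and 0.18 to 0.37 in the others.

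Adamts1 was at 4.89, 4.79 and 5.25 FPKM in LPS+bLF lungs, 9.49, 6.1 and 6.78 in LPS lungs, 4.6, 4.33 and 4.29 in bLF lungs, and 6.12, 5.98 and 5.6 in control lungs. Adamts5 was at 1.04, 1.62 and 1.05 FPKM in LPS+bLF lungs, 1.4, 0.94 and 0.94 in LPS lungs, 1.67, 1.01 and 1.02 in bLF lungs, and 1.85, 1.05 and 0.91 in control lungs. Adamts8 was at 3.9, 2.44 and 3.41 FPKM in LPS+bLF lungs, 2.95, 3.92 and 3.81 in LPS lungs, 3.38, 4.18 and 4.33 in bLF lungs, and 4.61, 3.01 and 4.9 in control lungs. These 3 enzymes cut proteoglycans such as versican and aggrecan. Adamts1 was above the control range in LPS replicates 1 and 3 (0.42 ± 0.22, edgeR adjusted p = 0.684), and Adamts5 and Adamts8 overlapped between the groups. Adamts9 was at 1.68, 1.03 and 1.91 FPKM in LPS+bLF lungs, 2.82, 1.84 and 1.98 in LPS lungs, 3.11, 4.11 and 3.77 in bLF lungs, and 3.24, 2.43 and 2.37 in control lungs. Adamts9, also a versicanase, overlapped as well (-0.18 ± 0.28, edgeR adjusted p = 0.789).

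Adam28 was at 2.13, 2.31 and 2.5 FPKM in LPS+bLF lungs, 2.41, 1.8 and 1.99 in LPS lungs, 2.67, 1.82 and 2.55 in bLF lungs, and 1.65, 4.06 and 1.67 in control lungs. Adamts10 was at 64.3, 41.8 and 55.0 FPKM in LPS+bLF lungs, 49.0, 73.1 and 64.4 in LPS lungs, 63.0, 67.9 and 58.4 in bLF lungs, and 62.1, 61.9 and 74.2 in control lungs. Adam28, a lymphocyte and epithelial ADAM, was highest in control replicate 2, and Adamts10, a partner of fibrillin microfibrils, overlapped between LPS and control lungs. Adamts13, which cuts von Willebrand factor, ranged from 27.3 to 34.1 FPKM in LPS lungs and from 30.6 to 42.6 in control lungs. Mmp23 ranged from 6.04 to 8.06 FPKM in LPS lungs and from 7.07 to 9.8 in control lungs. The other tested members were near 1 FPKM or lower: Mmp17, Adam1a, Adam4, Adam22 and Adamts7 had means over the 12 libraries of 0.518, 0.814, 0.356, 0.48 and 1.01 FPKM.

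LPS+bLF versus LPS asked how the LPS lung differed when bLF was given too. It shares its LPS libraries with the comparison above, so the values stand side by side and no overlap of the calls is drawn. None of the 40 members and none of all genes (0.00%) was called by edgeR. At an unadjusted p under 0.05, 0 members were higher and 12 lower in LPS+bLF lungs, where 3.27% of all genes were higher and 3.65% lower (6.92% in all, 950 genes). The 12 were Adam10, Adam17, Adamts1, Adamts2, Adamts14, Adamts15, Adamts17, Mmp2, Mmp3, Mmp8, Timp1 and Timp3. DESeq2 called 0 members among 7 genes (0.0510%), and limma called 0 members among 0 genes. The median log2 fold change of the 40 was -0.35, against -0.02 over all tested genes, with 8 above 0 and 32 below, where 47.9% of all genes were above 0. Without LPS replicate 1, 7 members passed, each of them lower (Adam10, Adam19, Adam22, Adamts14, Adamts17, Mmp2 and Mmp28), where 4.74% of all genes were higher and 4.16% lower, and the adjusted threshold was met by 0 members among 0.0146% of genes.

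**Figure D3:**
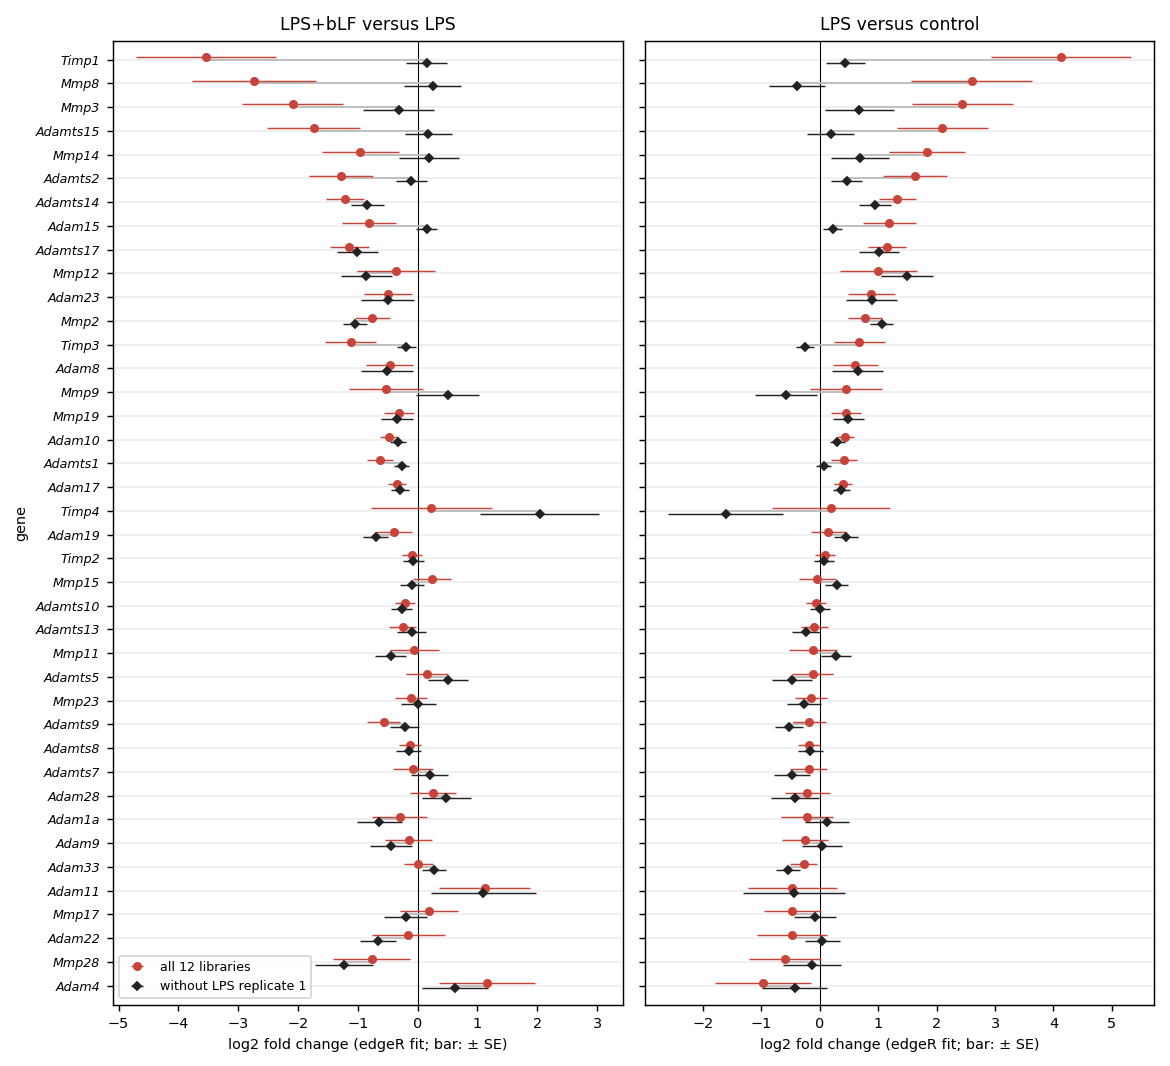
Fitted log2 fold change of the 40 tested members (± SE, edgeR) for LPS+bLF versus LPS (left) and LPS versus control (right), with all 12 libraries (circles) and without LPS replicate 1 (diamonds). Timp1 stood at -3.54 and 4.13 with all libraries and at 0.15 and 0.44 without that library, while Adamts14 and Adamts17 kept their sign and most of their size.

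Adamts14 was at 1.31, 1.01 and 1.32 FPKM in LPS+bLF lungs, against 3.58, 2.33 and 2.32 in LPS lungs, so that the groups did not overlap (-1.22 ± 0.32, edgeR adjusted p = 0.689). Its log2 fold change was -0.84 ± 0.27 without LPS replicate 1. Adamts17 did not overlap either, with 0.38 to 0.79 FPKM in LPS+bLF lungs against 1.09 to 1.34 in LPS lungs (-1.14 ± 0.33, edgeR adjusted p = 0.689, and -1.01 without replicate 1). In all 7 members lay wholly below the LPS range, Adam10, Adam17, Adam23, Adamts1, Adamts14, Adamts17 and Timp3, and 0 above it, where 4.91% of all genes lay below and 4.15% above. Adam10 had a log2 fold change of -0.48 ± 0.15 and Adam17 of -0.34 ± 0.15 (edgeR adjusted p = 0.689 for both). The LPS+bLF values of Adam10 and Adam17 overlapped those of the control lungs.

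Mmp2 ranged from 22.2 to 36.2 FPKM in LPS+bLF lungs, below LPS replicates 2 and 3 (55.7 and 64.6) and just above LPS replicate 1 (21.8). Its log2 fold change was -0.76 ± 0.29 (edgeR adjusted p = 0.689), and -1.05 without LPS replicate 1 (edgeR adjusted p = 0.461). Adamts1 was at 4.79 to 5.25 FPKM in LPS+bLF lungs against 6.1 to 9.49 in LPS lungs (-0.63 ± 0.22, edgeR adjusted p = 0.689, and -0.27 without replicate 1). Timp1 ranged from 9.48 to 21.4 FPKM in LPS+bLF lungs, which spans LPS replicates 2 and 3 (-3.54 ± 1.17 with replicate 1, edgeR adjusted p = 0.689, and 0.15 without it). For Timp3 the log2 fold change was -1.12 ± 0.43 (edgeR adjusted p = 0.689), and -0.19 without replicate 1. Mmp3 and Mmp8 moved to -0.32 and 0.25 without it, where they were -2.09 ± 0.84 and -2.74 ± 1.04 with it. Among members with a positive log2 fold change and a mean of 1 FPKM or more, those with the smallest p were Mmp15, Timp4, Adam28 and Adamts5, with log2 fold changes of 0.24, 0.23, 0.26 and 0.15 (edgeR adjusted p = 0.897, 0.98, 0.908 and 0.951).

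bLF versus control asked what bLF did without LPS. None of the 40 members was called by edgeR (0.00% of all genes), and none passed an unadjusted p under 0.05, where 1.38% of all genes did (189 genes). LPS replicate 1 enters this comparison only through the shared spread. Without it 3 members passed the unadjusted threshold (Adam15, Adamts1 and Adamts9), 2 higher and 1 lower, where 557 of all genes passed. With only the groups compared fitted, Adamts1 and Adamts9 passed, where 397 of all genes did. DESeq2 called 0 members among 1 gene (0.00728%) and limma 0 members among 0 genes. The median log2 fold change of the 40 was -0.02, against -0.03 over all tested genes. Adamts1 was the only member whose ranges did not overlap, at 4.29 to 4.6 FPKM in bLF lungs against 5.6 to 6.12 in control lungs (-0.41 ± 0.22, edgeR adjusted p = 1), where 5.74% of all genes lay wholly below and 2.21% above. Adam8 had the largest positive value (0.73 ± 0.39, edgeR adjusted p = 1), with 11.5 FPKM in bLF replicate 1 and 4.25 and 4.23 in the others. Adamts9 was at 3.11 to 4.11 FPKM in bLF lungs against 2.37 to 3.24 in control lungs (0.48 ± 0.28). Mmp28, Adam9 and Adam17 were on the lower side at -0.78, -0.53 and -0.18, and Adamts14 and Timp2 on the higher side at 0.40 and 0.18, each with an edgeR adjusted p of 1.

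LPS+bLF versus control asked how far the lungs given both stood from control lungs. By edgeR, 0 members and 0 genes (0.00%) were called. At an unadjusted p under 0.05, 1 member, Adamts9, was lower and 0 were higher, where 2.18% of all genes were lower and 2.63% higher (4.81% in all, 660 genes). DESeq2 called 0 members among 13 genes (0.0946%) and limma 0 members among 0 genes. The median log2 fold change of the 40 was 0.00, as over all tested genes. Adamts9 was at 1.68, 1.03 and 1.91 FPKM in LPS+bLF lungs against 3.24, 2.43 and 2.37 in control lungs, with no overlap (-0.76 ± 0.28, edgeR adjusted p = 0.832). Wholly below the control range were 6 members, Adam33, Adamts1, Adamts9, Adamts13, Mmp28 and Timp3, where 7.80% of all genes lay below, and 0 lay wholly above (3.91%).

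Mmp28 was at 0.73, 1.45 and 0.44 FPKM in LPS+bLF lungs against 1.48, 2.6 and 2.87 in control lungs (-1.36 ± 0.64, edgeR adjusted p = 0.832). Timp3 was at 32.6 to 46.6 FPKM in LPS+bLF lungs against 50.0 to 64.6 in control lungs (-0.44 ± 0.43, edgeR adjusted p = 0.832). On the higher side stood Mmp14 (0.88 ± 0.64), Mmp12 (0.63 ± 0.66), Adam15 (0.37 ± 0.44) and Adamts2 (0.34 ± 0.53), each with overlapping ranges. Adamts8 and Adamts10 stood at -0.31 ± 0.19 and -0.27 ± 0.17 (edgeR adjusted p = 0.832 for both), with ranges that also overlapped.

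The interaction asked whether the bLF difference was the same with and without LPS. It is the log2 fold change of LPS+bLF over LPS minus that of bLF over control. No member and no gene (0.00%) was called by edgeR, and DESeq2 called 0 members among 1 gene (0.00728%) and limma 0 members among 0 genes. At an unadjusted p under 0.05, 2 members had a negative interaction, where 2.80% of all genes passed (384 genes), 1.54% with a negative sign and 1.26% with a positive one. Adamts14 had an interaction of -1.62 ± 0.45 on the log2 scale (edgeR adjusted p = 1), made of -1.22 with LPS and 0.40 without, and -1.24 without LPS replicate 1. Adamts9 had -1.05 ± 0.40 (edgeR adjusted p = 1), from -0.57 with LPS and 0.48 without. Adam8 and Mmp2 followed at -1.21 ± 0.55 and -0.87 ± 0.41. Among members with a mean of 1 FPKM or more, the smallest p on the positive side belonged to Adam9, Adam28, Adamts5 and Mmp15, at 0.38, 0.30, 0.16 and 0.17. Over the 40 members the median was -0.25, against 0.02 over all tested genes.

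Summed FPKM set the RNA of the enzymes beside that of the inhibitors. Protein and enzyme activity are not part of these data. The sums used FPKM without the TMM factors of the fits, and Timp2 alone gave 109 to 176 FPKM of the Timp sum. The 18 Mmp genes summed to 172, 117 and 158 FPKM in LPS+bLF lungs, 279, 209 and 197 in LPS lungs, 133, 146 and 124 in bLF lungs, and 153, 111 and 141 in control lungs. The 3 LPS lungs were above all others, including replicates 2 and 3. Against control the difference of means was 93.3 FPKM, and LPS+bLF minus LPS was -79.5 FPKM, each with an exact two-sided permutation p of 0.1, the smallest that 3 against 3 allows (0.467 after adjustment over 28 such tests). The 4 Timp genes summed to 227, 172 and 216 FPKM in LPS+bLF lungs, 750.1, 242 and 216 in LPS lungs, 241, 242 and 221 in bLF lungs, and 243, 173 and 250.5 in control lungs, with overlap throughout apart from LPS replicate 1.

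The ratio of the Timp sum to the Mmp sum was 1.32, 1.47 and 1.37 in LPS+bLF lungs, 2.69, 1.16 and 1.09 in LPS lungs, 1.80, 1.66 and 1.78 in bLF lungs, and 1.59, 1.55 and 1.78 in control lungs. LPS replicates 2 and 3 had the lowest ratios of the 12 and LPS replicate 1 the highest, so that the LPS and control means were alike at 1.65 ± 0.903 and 1.64 ± 0.121 (SD, n = 3). LPS+bLF lungs lay below control lungs (exact permutation p = 0.1, adjusted 0.467). The Mmp, Adam and Adamts genes together summed to 411, 328 and 414 FPKM in LPS+bLF lungs, 797, 491 and 450.4 in LPS lungs, 429, 403 and 356 in bLF lungs, and 416, 324 and 393 in control lungs. Every LPS lung was above the other 9, at an exact permutation p of 0.1 against control and 0.1 for LPS+bLF against LPS (0.467 adjusted).

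**Figure D4:**
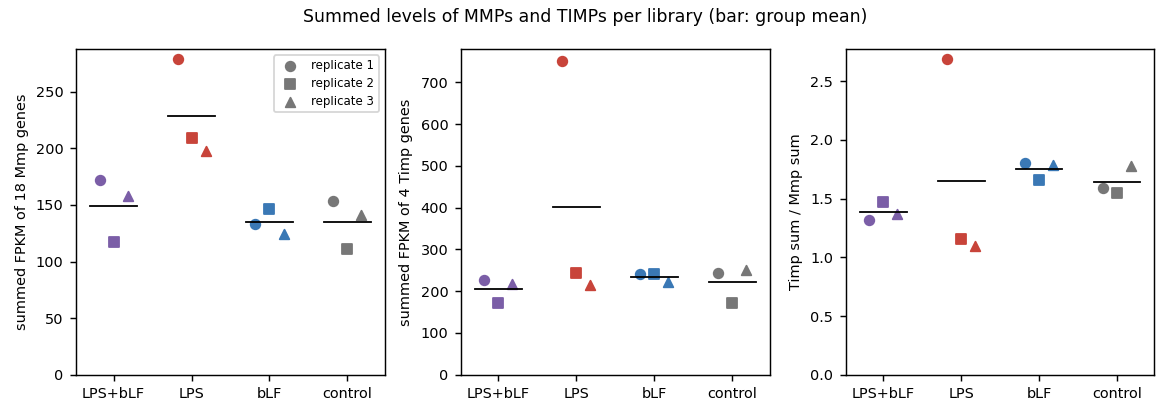
Summed FPKM of the 18 Mmp genes (left), summed FPKM of the 4 Timp genes (middle) and their ratio (right) in each library, by group, with a bar at the group mean and a symbol for each replicate; all axes start at 0. LPS replicate 1 had the highest ratio at 2.69 and LPS replicates 2 and 3 the lowest at 1.16 and 1.09.

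Genes around the family were read from 4 lists of activators and regulators, ADAMTS-like proteins, shed substrates and matrix substrates. No listed gene was called by edgeR in any comparison. For LPS versus control, 11 of the 37 tested matrix substrates were higher at an unadjusted p under 0.05 and 0 were lower, where 5.52% of all genes were higher and 1.62% lower. Their median log2 fold change was 0.27, and 5 passed without LPS replicate 1. For these lists, counts without that library take both directions together. In this comparison 3.83% of all genes were then higher and 1.17% lower. Eln was at 201, 94.4 and 249.87 FPKM in LPS+bLF lungs, 2147, 336 and 266 in LPS lungs, 95.5, 126 and 61.5 in bLF lungs, and 232, 62.1 and 81.9 in control lungs. Eln, the elastin gene, was above the control range in each LPS lung, at 3.17 ± 0.88 (edgeR adjusted p = 0.421) and 1.27 without replicate 1. Col3a1 was at 34.2, 23.9 and 19.5 FPKM in LPS+bLF lungs, 45.3, 39.8 and 46.3 in LPS lungs, 25.1, 22.3 and 15.2 in bLF lungs, and 27.6, 21.0 and 27.6 in control lungs. The LPS values of Col3a1, the type III collagen gene, also lay above the control values (0.86 ± 0.24, edgeR adjusted p = 0.404, and 0.72 without replicate 1).

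Against the same shares of all genes, 7 of the 26 tested regulators were higher and 0 lower (median 0.19), with 2 passing without LPS replicate 1. The smallest p belonged to Cd44, a surface docking site of Mmp9. Cd44 was at 10.7, 7.58 and 10.8 FPKM in LPS+bLF lungs, 17.1, 12.0 and 12.1 in LPS lungs, 6.46, 8.13 and 8.46 in bLF lungs, and 7.1, 7.92 and 9.02 in control lungs. Its log2 fold change was 0.85 ± 0.25 (edgeR adjusted p = 0.456), and 0.52 without LPS replicate 1. Of 31 shed substrates, 2 were higher and 2 lower (median -0.19), and 6 passed without LPS replicate 1 (median -0.06). Tnfrsf1b was at 15.8, 14.9 and 17.4 FPKM in LPS+bLF lungs, 23.9, 19.8 and 19.9 in LPS lungs, 13.7, 13.0 and 11.9 in bLF lungs, and 14.2, 6.85 and 10.7 in control lungs. Tnfrsf1b, a TNF receptor shed by Adam17, was above the control range in each LPS lung (1.10 ± 0.22, edgeR adjusted p = 0.133, and 0.88 without replicate 1). Cx3cl1, a membrane chemokine shed by Adam10 and Adam17, was at 3.81, 11.3 and 9.98 FPKM in LPS lungs against 16.4, 13.0 and 18.7 in control lungs (-0.93 ± 0.29, edgeR adjusted p = 0.535, and -0.63 without replicate 1). Of 6 ADAMTS-like genes 1 was higher, Adamtsl2 (1.63 ± 0.70, edgeR adjusted p = 0.684, and -0.06 without replicate 1), and Adamtsl5 stood at -0.36 ± 0.17.

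For LPS+bLF versus LPS, 11 matrix substrates were lower and 1 higher (median -0.38), where 3.65% of all genes were lower and 3.27% higher, and 8 passed without LPS replicate 1 (median -0.24). Without that library 4.16% of all genes were lower and 4.74% higher, and the list counts again take both directions together. Col1a2 and Col5a2, fibrillar collagen genes, had the smallest p at -0.95 ± 0.26 and -0.93 ± 0.25 (edgeR adjusted p = 0.689 for both), and at -0.58 and -0.72 without LPS replicate 1. Col5a2 was at 5.46, 3.09 and 3.04 FPKM in LPS+bLF lungs against 7.95, 7.14 and 6.47 in LPS lungs. Of the regulators 5 were lower and 0 higher, and 2 passed without LPS replicate 1. Among the 5 was Lcn2, which binds Mmp9, at -1.34 ± 0.44, and at -0.92 without that library. Among shed substrates 1 was higher, Cx3cl1 (0.90 ± 0.29), with 5 passing without LPS replicate 1, and the decoy receptor Il1r2 stood at -2.74 ± 1.32, turning to 1.62 without LPS replicate 1. No ADAMTS-like gene passed.

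With bLF alone, 2 of 26 tested regulators were higher and 0 lower at an unadjusted p under 0.05, where 1.38% of all genes passed. These were the urokinase receptor Plaur at 0.63 ± 0.21 and the Adam17 partner Rhbdf1 at 0.32 ± 0.14. Of 6 ADAMTS-like genes 1 was higher, Adamtsl4 at 0.51 ± 0.14. Of 37 matrix substrates 1 was lower, Tnc at -0.72 ± 0.29, and no shed substrate passed. The edgeR adjusted p was 1 for each gene named. For LPS+bLF versus control, the Adam10 partner Tspan33 (0.85 ± 0.38) and Tnfrsf1b (0.67 ± 0.22) were higher and the growth factor Csf1 (-0.44 ± 0.18) lower at an unadjusted p under 0.05, with edgeR adjusted p = 0.832 for each. That is 1 of 26 regulators higher, with 1 of 31 shed substrates higher and 1 lower. Matrix substrates gave 0 in either direction there, where 2.63% of all genes were higher and 2.18% lower. When LPS replicate 1, which enters that comparison only through the shared spread, was left out, 4 matrix substrates, 8 shed substrates and 2 regulators passed, where 12.4% of all genes did. In the interaction, Adamtsl4 stood at -0.72 ± 0.20, Plaur at -0.71 ± 0.30, Tnfrsf1b at -0.75 ± 0.31 and Col1a1 at -1.24 ± 0.49, all with an edgeR adjusted p of 1. Without LPS replicate 1 these values were -0.73 for Adamtsl4, -0.46 for Plaur, -0.52 for Tnfrsf1b and -0.63 for Col1a1.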

How the data were processed

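Whole-lung polyadenylated RNA was sequenced as 1 library per mouse. The deposited files hold, per the file headers, a count and an FPKM for each gene, made with HISAT2 2.1.0 and RSEM 1.2.8 on mm10 per the submitters' processing notes. The deposited values are estimated counts of the kind RSEM gives (4.12% to 5.91% of genes hold a fraction), and were rounded to whole numbers. Strandedness, annotation and filters are not given in the sources used here. The authors' FPKM was used for levels, for the filter and in limma.

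Genes that reached 0.5 FPKM in 3 or more libraries were fitted with edgeR 4.0.16 (R 4.3.3), as a quasi-likelihood fit of 4 group means over 12 libraries with TMM factors and 8 residual degrees of freedom. Tests were two-sided, and calls were made under 0.05 after Benjamini-Hochberg adjustment over all 13735 tested genes. The code was tested on simulated data with 200 changed genes, 100 of them at a log2 fold change of 1 and 100 at 2, in either direction. For LPS versus control edgeR recovered 16% and 74% of these with 5 false calls. DESeq2 recovered 38% and 88% with 35 false calls, and limma 12% and 75% with 4. Sums were tested with an exact permutation test (scipy 1.17.1). Replicates are separate mice per the labels.

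Alternatives were DESeq2 1.42.0, limma 3.58.1 on log2(FPKM + 1) and log2(FPKM + 0.1), RLE and upper-quartile factors, no filter, a robust fit, a replicate block, a fit of the groups compared alone, and leaving out each of the 12 libraries. Members, gene lists and tests were chosen with earlier results of these data known. Named members were a set of 22 given whatever their test, and in each comparison the 4 higher and 4 lower ones with the smallest p and a mean of 1 FPKM or more. Members on which a count turned (Adamts15, Adamts17, Adam11, Adam23 and Mmp11) were named after their values were seen. One gene of the regulator list is not reported here by name. Gene positions came from RefSeq (GRCm38.p6, mm10), and exon overlaps from GENCODE.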

Additional observations from a re-analysis of the deposited data

How the results depend on the processing

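No member was called under any alternative apart from Adamts14 by DESeq2 (LPS versus control, 1 member called). Genes called by DESeq2 were 139 for LPS versus control, 7 for LPS+bLF versus LPS, 1 for bLF versus control, 13 for LPS+bLF versus control and 1 for the interaction, and limma on log2(FPKM + 1) called 2 for LPS versus control. Members at an unadjusted p under 0.05 numbered 6 for LPS versus control when only the groups compared were fitted, where 502 of all genes passed. Counts of all genes are out of 13735, or out of 17887 with no filter. For LPS+bLF versus LPS they numbered 5 with either limma fit (622 and 616 of all genes), 6 with the replicate block (636 genes) and 4 with only the groups compared (464 genes). For bLF versus control they numbered 1 with either limma fit (143 and 131 of all genes), 2 with no filter (211 genes) and 2 with only the groups compared (397 genes). For LPS+bLF versus control they numbered 2 with DESeq2 (847 of all genes), 3 with limma on log2(FPKM + 1) (496 genes) and 2 on log2(FPKM + 0.1) (481 genes). They numbered 2 with no filter (741 genes), 2 with the replicate block (495 genes) and 3 with only the groups compared (900 genes). For the interaction they numbered 4 with RLE factors (387 of all genes), 7 with DESeq2 (512 genes) and 4 with no filter (502 genes). Replicate numbers did not pair the samples: 5 of 18 same-number pairs correlated above 0.1 (range -0.688 to 0.569), and 2 of 12 libraries correlated best with their own number. The block changed no call. A fit of only the groups compared does not exist for the interaction.

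With 1 library left out, called genes numbered 0 to 25 for LPS versus control and 0 to 2 for LPS+bLF versus LPS, both highest without LPS replicate 1, and 0 elsewhere. Members at an unadjusted p under 0.05 numbered 7 to 14 for LPS versus control, 5 to 13 for LPS+bLF versus LPS, 0 to 3 for bLF versus control, 1 to 5 for LPS+bLF versus control and 1 to 10 for the interaction. In the same order, 594 to 2327, 455 to 1465, 103 to 557, 298 to 1702 and 206 to 757 of all 13735 genes passed. The log2 fold change took both signs, depending on the library left out, for 17 of 40 members for LPS versus control, 20 for LPS+bLF versus LPS, 20 for bLF versus control, 15 for LPS+bLF versus control and 21 for the interaction. Among the members with the smallest p in either direction these were Adam9 for LPS versus control (-0.52 to 0.04), and for LPS+bLF versus LPS Adamts5 (-0.12 to 0.51), Mmp15 (-0.09 to 0.43), Timp1 (-4.15 to 0.15) and Timp4 (-1.30 to 2.04). In the interaction they were Adam28 (-0.36 to 0.55), Adamts5 (-0.15 to 0.53) and Mmp15 (-0.15 to 0.38). Others with a wide range included, for LPS versus control, Mmp8 (-0.39 to 3.17), Timp3 (-0.25 to 1.01) and Timp4 (-1.61 to 0.89), for LPS+bLF versus LPS, Mmp8 (-3.33 to 0.25), Adamts15 (-2.27 to 0.18), Mmp14 (-1.41 to 0.19) and Adam15 (-1.18 to 0.15), and for the interaction, Timp1 (-3.81 to 0.49) and Mmp8 (-2.84 to 0.73). Differences of summed FPKM that turned were Timp for bLF versus control (-12.1 to 26.8) and metalloproteinases for bLF versus control (-8.44 to 38.4) and LPS+bLF versus control (-19.9 to 34.7). The Timp to metalloproteinase ratio turned for LPS versus control (-0.0984 to 0.133), LPS+bLF versus LPS (-0.185 to 0.0461) and bLF versus control (-0.0165 to 0.0359). The fitted biological variation between libraries (coefficient) was 0.352 with all libraries and 0.292 without LPS replicate 1. The cause of these shifts was not tested. Each group held 3 lungs, and a member that missed the threshold is not shown to be level between groups.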
